A study of Mus musculus with 4 samples.

Results

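MHC class II high macrophages without Cxcl9 were 311 of the 23961 cells past the quality filter from 4 neonatal mouse heart libraries. A cell was counted as one when C1qa, C1qb and C1qc together reached 30 and Cd74, H2-Aa, H2-Ab1 and H2-Eb1 together reached 50 per 10000 UMIs (unique molecular identifiers, the counted RNA molecules). It also had to stay at or under 1 UMI of Cxcl9, 1 UMI of the dendritic cell genes Xcr1, Clec9a, Cd209a and Ccr7 together, 2 UMIs of Gpnmb, and 2 UMIs of the T and B cell receptor genes Cd3d, Cd3e, Cd3g, Cd79a and Cd79b together. The members were thus chosen by the measured levels of these 18 genes, which are given below as a description and support nothing. The cells with every other property but class II under 50 per 10000 UMIs, called class II low macrophages here, numbered 7874 and served as the comparison within each library.

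C57BL/6 mice carrying a heterozygous (Het) or homozygous (KO) deletion of PD1, the inhibitory receptor of activated T cells, had sham surgery or myocardial infarction (MI) at postnatal day 2, and their hearts were taken 7 days later. Both genotypes carry at least 1 deleted allele, and no wild-type library was analysed here. Hearts without atria were digested, live CD45+ cells (all immune cells) were sorted, and 1 library of the 10x 3′ v3 chemistry was made for each of the 4 groups, Het sham, KO sham, Het MI and KO MI. The number of hearts per library is not given in the labels, there is no replicate of any group, and no difference between groups has a replicate check.

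Macrophages that carry MHC class II on their surface show peptides from engulfed material to CD4+ T cells. The coactivator Ciita switches the class II genes on by binding a set of factors on a shared promoter module, the invariant chain Cd74 guides the α and β chains to the endosome, and the H2-DM heterodimer loads the peptide there. In the heart, class II high macrophages that express Ccr2 are known to be replaced from blood monocytes, while class II low macrophages that express Lyve1, Timd4 and Folr2 largely maintain themselves.

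To show the promoter module that these genes share, the 250 bases before the RefSeq start of a pair of them are printed 5′ to 3′ on the gene's strand, in build GRCm38.p6. H2-Aa encodes the α chain of I-A (minus strand, chr17:34287824-34288073), and H2-Eb1 the β chain of I-E (plus strand, chr17:34305617-34305866). Capitals mark CTGATTGG and ATTGG, the Y box core, on either strand.
H2-Aa: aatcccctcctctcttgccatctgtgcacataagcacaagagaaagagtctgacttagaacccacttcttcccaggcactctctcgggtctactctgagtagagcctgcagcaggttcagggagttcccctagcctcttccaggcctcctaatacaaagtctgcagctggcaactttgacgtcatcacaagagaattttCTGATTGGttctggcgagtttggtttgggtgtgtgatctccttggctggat
H2-Eb1: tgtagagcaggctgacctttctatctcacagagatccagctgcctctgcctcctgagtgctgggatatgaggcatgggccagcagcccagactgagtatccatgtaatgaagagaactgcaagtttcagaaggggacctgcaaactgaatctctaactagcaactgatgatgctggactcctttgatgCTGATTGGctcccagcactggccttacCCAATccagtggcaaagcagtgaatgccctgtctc
CTGATTGG, which contains ATTGG, started 51 bases before the start of H2-Aa and 62 bases before that of H2-Eb1. ATTGG or its reverse complement was found in the windows of 8 of 8 class II genes with an entry (H2-Aa, H2-Eb1, H2-Eb2, H2-DMa, H2-DMb1, H2-DMb2, H2-Oa and H2-Ob), against 33.8% of 32851 promoter windows of the same length. CTGATTGG was found in 4 of the 8 (H2-Aa, H2-Eb1, H2-Eb2 and H2-Oa), against 3.83% of all windows. For H2-DMa the match lay only in the second of 2 listed windows, 198 bases before that start.

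The cells matched the macrophage label and not that of a dendritic cell or a Langerhans cell. Csf1r, the receptor for the growth factor of macrophages, had 670, 701, 705 and 751 CPM (counts per 1000000 UMIs) in Het sham, KO sham, Het MI and KO MI, an order of libraries kept throughout, against 842 to 1039 CPM in class II low macrophages. The lysosomal marker Cd68 had 335, 448, 462 and 422 CPM, against 484 to 501 CPM. Of the 7 conventional dendritic cell markers, Cd209a, Xcr1 and Clec9a were limited by the rule itself, so their low level shows nothing. The members had 12 UMIs of Dpp4, 5 of Flt3, the growth factor receptor of these cells, 3 of the transcription factor Zbtb46 and 0 of the integrin Itgae. Against class II low macrophages, Dpp4 (3.82 and 0.766 CPM) and Flt3 (1.59 and 0.240 CPM) were higher and Zbtb46 (0.954 and 2.47 CPM) lower. Cd209a+ class II high cells with little C1q (49 cells over the 4 libraries) had 65.6 CPM of Dpp4 and 57.6 CPM of Flt3. Of the 3 Langerhans cell markers, the lectin Cd207 was present in 3 libraries and at 0 in Het sham, while the adhesion genes Epcam and Cdh1 had 1 and 6 UMIs in all 311 cells.

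The members' own class II markers were present in every library, with the exception of Cd207 in Het sham. Cd74 had 6365, 7785, 7876 and 9254 CPM, H2-Ab1 2889, 2625, 2804 and 3225 CPM, and H2-Eb1 2512, 2453, 2764 and 3364 CPM. The 5 markers together reached 12227 to 16487 CPM, against 212 to 422 CPM in the class II low macrophages. Among all C1q macrophages the median class II level was 0.367, 0.568, 0.728 and 1.25 per 10000 UMIs. Class II low cells thus made up most macrophages in every library, and the members were a tail of the distribution. Near the limit, 7, 4, 10 and 23 cells lay between 40 and 50 per 10000 UMIs and 2, 2, 6 and 18 between 50 and 60. The lowest member had 55.7, 55.3, 50.8 and 50.04, and the highest cell outside 49.7, 46.0, 46.5 and 49.97.

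Libraries held 6157 to 8379 barcodes and 52701847 to 72002420 UMIs. Het sham stood apart. Its 5 members had a median of 951 UMIs, 3 of them had under 2000, and their UMIs summed to 23882, whereas the medians were 10927, 10771.5 and 8470 UMIs and the sums 355041, 646626 and 2118763 in KO sham, Het MI and KO MI. A second cell lineage was detected in 2, 0, 4 and 27 members (40%, 0%, 7.41% and 12.1%). In class II low macrophages the shares were 10.1%, 7.83%, 7.78% and 9.89%. Neutrophil RNA was the most frequent of these, in 2, 0, 3 and 15 members. Pairs of libraries shared 7 to 16 cell barcodes, and none of these was a member's in both libraries of a pair. Genes of the Y chromosome were at 0 in KO MI members and at 81.7 to 102 CPM in the other 3 libraries, so the sex of the mice is a further difference between KO MI and the rest. The 3′ tag of Pdcd1, the gene of PD1, had 0, 0, 1 and 3 UMIs in the members, and since the labels do not give the deleted part it checks nothing.

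Class II high macrophages were a larger share of the C1q macrophages after MI than after sham, and larger in the KO than in the Het library of each surgery. Counted cells were 5 of 1404 in Het sham, 29 of 2380 in KO sham, 54 of 1892 in Het MI and 223 of 2509 in KO MI. As shares of the C1q macrophages they were 0.356% (95% exact Clopper-Pearson interval 0.116 to 0.829), 1.22% (0.818 to 1.75), 2.85% (2.15 to 3.71) and 8.89% (7.803 to 10.1). None of these intervals, which cover counting error only, overlapped its neighbour except those of Het sham and KO sham, which met between 0.818% and 0.829%.

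The KO MI share was 3.11 times that of Het MI (interval 2.33 to 4.17) and 7.29 times that of KO sham (4.97 to 10.7). The KO sham share was 3.42 times (1.33 to 8.82) and the Het MI share 8.01 times (3.21 to 20.0) that of Het sham, both resting on 5 cells. Among cells of at least 1000 UMIs these last ratios were 8.17 and 19.1, and without droplets holding a second lineage 5.55 and 12.04. With a class II limit of 25 per 10000 UMIs the KO sham share was 0.969 times that of Het sham, so the order of the sham libraries turned. With every cell thinned to 2000 UMIs, KO MI over KO sham was 3.46 and KO MI over Het MI 2.16, from 20, 106, 143 and 434 cells. There the limits set in UMIs applied to the thinned counts, so cells over a limit at full depth could become members. Thinning thus changed which cells were counted as well as their depth. The limits set in UMIs removed many C1q+ class II high cells as deposited. Of 41, 140, 178 and 542 such cells, the lymphocyte limit was exceeded by 33, 97, 105 and 231, the dendritic cell limit by 25, 74, 79 and 133, and the Cxcl9 limit by 0, 0, 1 and 62, and a cell could exceed more than 1 of them. The library, genotype, surgery and sex of the mice cannot be told apart here.

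**Figure D1:**
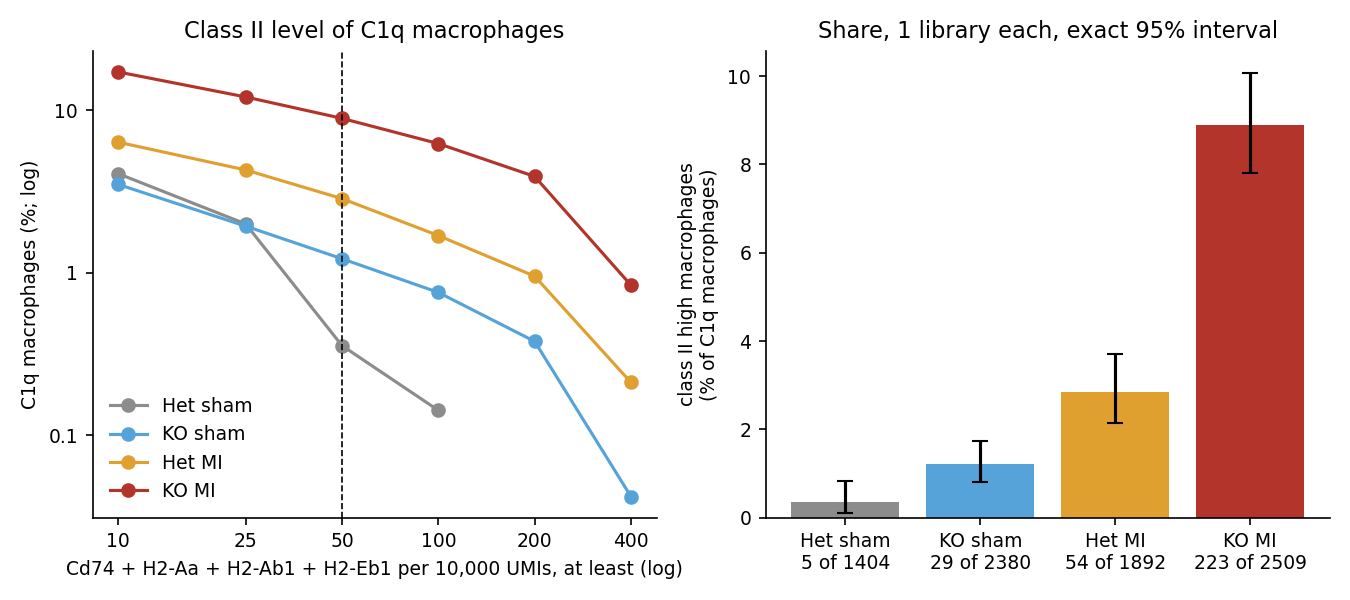
Left, the percent of C1q macrophages (log axis) at or above each class II level per 10000 UMIs (log axis), 1 line per library, with the dashed line at the limit of 50; right, the percent of C1q macrophages that are class II high without Cxcl9, as bars with exact 95% intervals. The KO MI line lies above the others at the limit, and the bars stand at 0.356%, 1.22%, 2.85% and 8.89%.

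Among genes outside the rule, the members had more peptide-loading and monocyte-derived macrophage RNA and less RNA of the resident macrophage programme than class II low macrophages of the same library. The peptide-loading genes share their regulation with the class II genes of the rule. Their rise is therefore not independent of how the cells were chosen. UMIs were summed per library and population and compared with edgeR's quasi-likelihood test, with the library as a block and Benjamini-Hochberg adjustment over 12201 genes. The p-values rest largely on dispersion pooled across genes, not on the spread of each gene among the 4 libraries, which differ in condition. A very small p-value thus does not mean that a gene moved alike in all 4. At an adjusted p under 0.05, 477 genes were higher (3.91% of those tested) and 465 lower (3.81%) in the members, with a median log2 fold change over all tested genes of -0.08. Those counts were 196 and 110 with DESeq2, 173 and 113 without KO MI, 265 and 213 without Het MI, 279 for the lower genes without KO sham, and 812 for the higher genes without Het sham. Of the 477 higher genes, 250 were higher in all 4 libraries, and of the 465 lower genes 406 were lower in all 4. Fold changes below are log2, members over class II low macrophages, with the SE. Of 88 genes with a call that were followed through the 15 alternatives, 48 kept it in every one that could be fitted, and losses are given beside the genes.

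The class II accessory genes were the list furthest above the median of all genes. Of 6 tested, 5 rose and 0 fell, with a list median of 2.76. H2-DMa (chr17:34119541-34139101), the α chain of the peptide-loading H2-DM dimer, had 461, 439, 464 and 558 CPM in the members and 76.0, 76.5, 87.0 and 104 CPM in class II low macrophages. Every member value lay above every class II low value, and the difference was 2.55 ± 0.15 (SE; edgeR, adjusted p = 2.2e-65). H2-DMb1 (chr17:34153072-34160230), a β chain of H2-DM, had 377, 304, 278 and 337 CPM in the members and 24.3 to 26.2 CPM in the class II low cells, a difference of 3.73 ± 0.15 (edgeR adjusted p = 1.66e-127). Its neighbour H2-DMb2 rose by 2.24 ± 0.40 from 2.53 to 10.8 CPM over all libraries. The 2 genes are near-identical copies, and how the authors' counting divided reads between them is not known, so their separate values are uncertain.

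Ciita (chr16:10480059-10528418), the class II coactivator, was near 0 in class II low macrophages. It had 0, 28.2, 18.6 and 25.01 CPM in the members, from 75 UMIs, against 0.269, 0.479, 0.624 and 1.35 CPM, and rose by 4.88 ± 0.36 (edgeR adjusted p = 4.15e-38). The 0 in Het sham allows up to 3 UMIs among 23882. H2-Oa, a chain of H2-DO that restrains H2-DM, rose by 2.96 ± 0.40 with 0, 8.45, 17.0 and 9.44 CPM, and its partner H2-Ob did not pass (0.77, adjusted p = 0.517, 10 UMIs). Ciita was the only one of 9 class II regulators to pass. Rfx5, a subunit of the promoter-binding complex, had 4.13 CPM in the members and 3.86 in class II low macrophages. Of 11 antigen processing genes, 3 rose: Ctss, the protease that trims Cd74 (1.09 ± 0.22), Ifi30, the lysosomal thiol reductase (0.91 ± 0.17), and Psap, the saposin precursor (0.91 ± 0.22). The tetraspanin Cd63 fell by 0.58. The Ctss call was lost without KO MI (adjusted p = 0.0593), that of Psap without KO sham, Het MI or KO MI, and that of Cd63 in 5 of 15 alternatives, DESeq2 among them.

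The monocyte-derived macrophage list was higher as well, with 8 of 13 genes up, 0 down and a median of 1.22. Ccr2 (chr9:124101950-124113557), the Ccl2 receptor that brings monocytes into tissue, had 502, 273, 334 and 321 CPM in the members and 35.6, 32.0, 44.9 and 48.7 CPM in class II low macrophages. The groups did not overlap, and the difference of 3.04 ± 0.15 (edgeR adjusted p = 2.02e-92) passed in all 15 alternatives. In Het sham 10 of the 12 Ccr2 UMIs came from 1 cell. Ms4a4c, a membrane protein of monocytes, rose by 3.04 ± 0.19, with 1214 CPM in Het sham and 39.4 to 79.3 CPM in the other libraries, and all its Het sham UMIs came from 1 cell. The deepest Het sham member held 17163 of the 23882 UMIs of the Het sham members. Napsa, an aspartic protease (2.01), Ly6c2, a surface antigen of inflammatory monocytes (1.59), Plac8 (1.56), the calcium-binding S100a4 and S100a6 (1.36 and 1.22) and fibronectin, Fn1 (1.07), rose too. For Ly6c2 the KO sham members had 2.82 CPM against 11.1 in class II low cells, the reverse of the other 3 libraries, and the Ly6c2 call was lost with DESeq2 (adjusted p = 0.680). The Fn1 call was lost with DESeq2 and without the library block (up to 0.459). The 5 classical monocyte markers, Ccr2 among them, summed to 572 to 2177 CPM in the members and 131 to 283 CPM in class II low macrophages. The highest sum was that of Het sham, where 30 of 31 Plac8 UMIs came from 1 cell. Over all libraries Ccr2 (320 CPM) and Plac8 (322 CPM) made up most of the members' sum. Chil3 ran the other way (4.45 against 5.63 CPM), and Vcan had 4.77 against 3.32 CPM. Both were at 0 in Het sham and Het MI members.

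All 13 genes of the resident macrophage programme fell, with a median of -1.75. Pf4, a chemokine abundant in resident macrophages, is not one of the 13 and is counted with the chemokines below. It had 293, 1608, 980 and 892 CPM in the members and 4838, 4797, 3768 and 3339 CPM in class II low macrophages (-2.02 ± 0.26, edgeR adjusted p = 1.16e-12). Folr2, a folate receptor, had 0, 47.9, 52.6 and 63.7 against 244 to 302 CPM and fell by 2.14. The lowest class II low library lay above the highest member library for both genes. Cd163, the scavenger of haemoglobin complexes, had 0, 28.2, 0 and 12.7 CPM against 49.2 to 80.7 (-2.48 ± 0.28), and its call was lost with DESeq2 (adjusted p = 0.281). Vsig4, a complement receptor (-4.53), Cbr2, a carbonyl reductase (-1.97), Gas6, the bridge between dying cells and their receptors (-1.88), F13a1, coagulation factor XIII (-1.78), the mannose receptor Mrc1 (-1.45), Stab1, a scavenger receptor (-1.43), and the transcription factor Maf (-1.14) fell as well. The calls of Mrc1 and Maf were lost with DESeq2 (adjusted p = 0.186 and 0.325).

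Lyve1 and Timd4, the markers by which self-maintaining heart macrophages are usually recognised, showed smaller differences. Lyve1 had 0, 225, 110 and 24.1 CPM in the members and 155, 197, 169 and 135 CPM in class II low macrophages (-0.87 ± 0.16, edgeR adjusted p = 5.96e-06). In KO sham the members were above the class II low cells, where 1 cell held all 80 UMIs, and the Lyve1 call was lost in 3 of 15 alternatives. Timd4 fell by 0.68 (adjusted p = 0.041) and lost its call in 6 of 15.

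**Figure D2:**
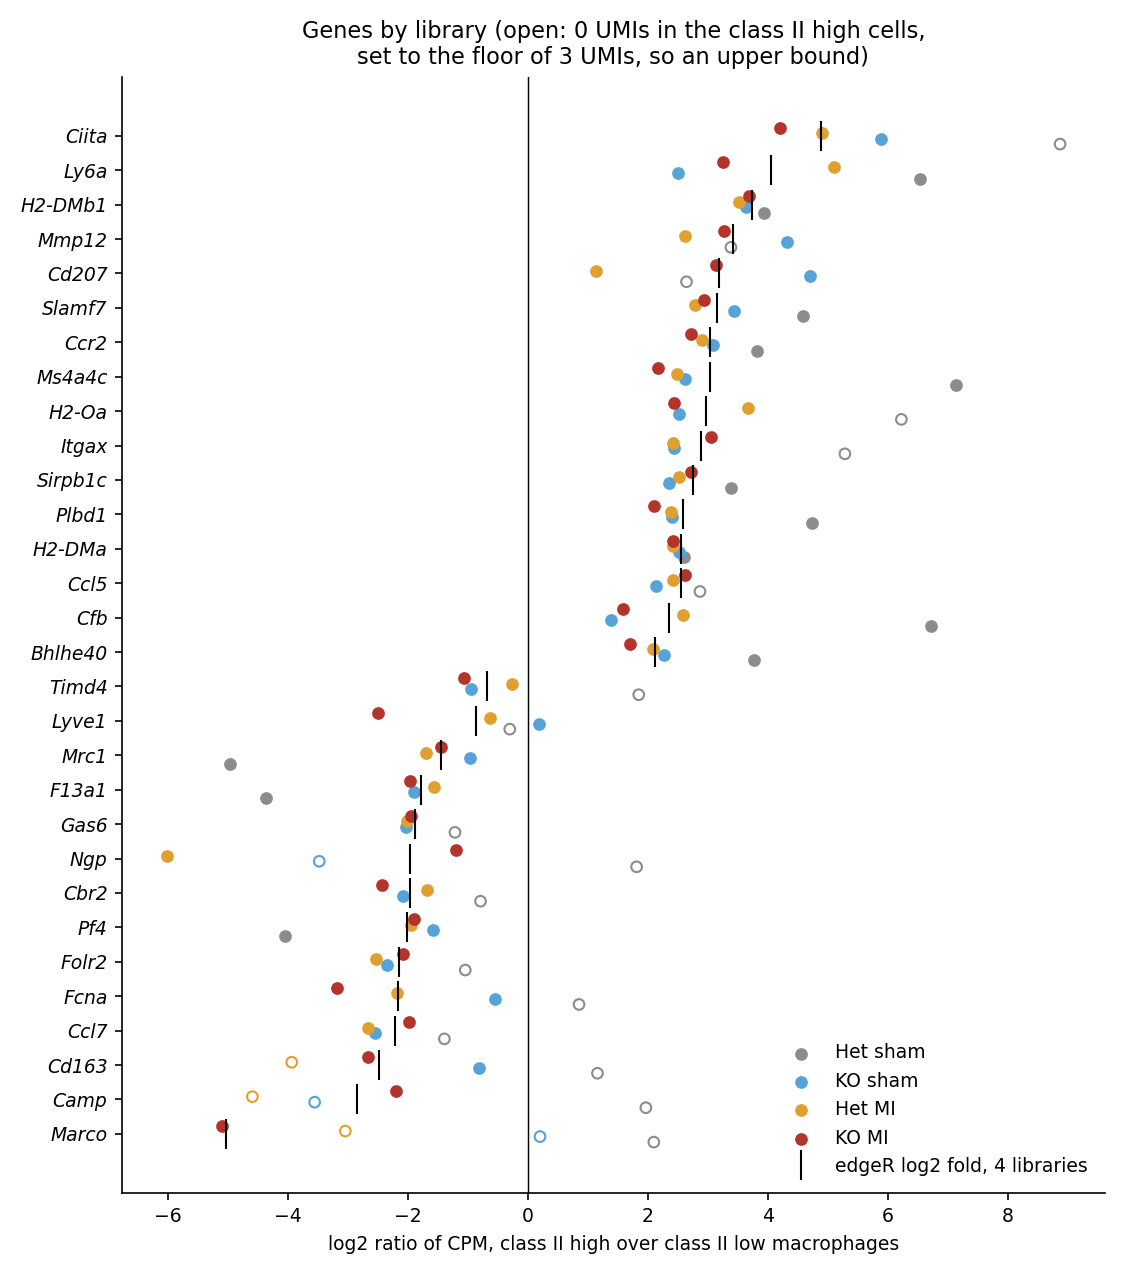
The log2 ratio of CPM in class II high over class II low macrophages for 30 genes, 1 point per library, with a black tick at the edgeR log2 fold; open points mark 0 UMIs in the class II high cells, set to the floor of 3 UMIs and so an upper bound. H2-DMa, H2-DMb1 and Ccr2 lie to the right of 0 in all 4 libraries, and Pf4 and Mrc1 to the left.

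The genes with the largest differences among those moving one way in all 4 libraries, each with at least 100 UMIs, held further surface and effector genes. Ly6a, the stem cell antigen also known as Sca-1 (chr15:74994877-74998031), had 335, 5.63, 46.4 and 76.0 CPM against 0.995 to 7.93 and rose by 4.05 ± 0.25 (edgeR adjusted p = 9.73e-57). Slamf7 (chr1:171632403-171653035), a self-binding receptor of immune cells, had 126, 62.0, 72.7 and 109 CPM against 5.24, 5.75, 10.5 and 14.3 (3.16 ± 0.19). Slamf7 members lay above the class II low cells in every library. The Het sham UMIs of Ly6a, Slamf7, Plbd1 and Cfb each came from 1 cell. In KO sham the members had 2 UMIs of Ly6a, under the floor of 3 UMIs, so no difference is shown there. Sirpb1c (2.75), the phospholipase-like Plbd1 (2.58), complement factor B, Cfb (2.36), and the transcription factor Bhlhe40 (2.12) completed the 10 highest with Ccr2, Ms4a4c, H2-DMa and H2-DMb1. Cfb lost its call with DESeq2 (adjusted p = 0.0562).

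At the other end stood Marco (chr1:120474538-120505024), a scavenger receptor for bacteria and particles, with 0, 0, 0 and 5.66 CPM against 29.3, 7.34, 38.2 and 192 (-5.03 ± 0.39). Its call was lost without the library block (edgeR adjusted p = 0.137). In Het sham the floor of 3 UMIs among 23882 lay above the class II low level of Marco, Cd163, Fcna, Camp and Ngp, so the 0 there shows no difference, and in KO sham the same held for Marco. Cd163, Ccl7, a monocyte-attracting chemokine (-2.22), Fcna, a ficolin (-2.16), Folr2, Pf4, Cbr2 and Gas6 followed, together with the neutrophil granule genes Camp (-2.84) and Ngp (-1.96). Of the Camp UMIs in the members 83.6% came from 1 cell, and of the Ngp UMIs 73.0%, and both calls were lost with DESeq2. Ngp turned to 1.24 when droplets with a second lineage were left out and to 1.52 with S100a8 and S100a9 limited to 1 UMI together, so neither gene is read further.

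Members differed from class II low macrophages in integrins and matrix enzymes as well. Mmp12 (chr9:7344381-7369499), macrophage elastase, had 0, 197, 110 and 171 CPM against 9.92 to 17.9 and rose by 3.42 ± 0.20 (edgeR adjusted p = 6.56e-65). Itgax, the CD11c integrin chain, had 0, 14.1, 24.7 and 40.6 CPM against 2.62 to 4.89 (2.88 ± 0.30). Cd207 (chr6:83671215-83677857), the lectin langerin, had 0, 296, 43.3 and 85.9 CPM against 20.1, 11.4, 19.8 and 9.77 (3.18 ± 0.19, edgeR adjusted p = 3.68e-61). All 3 genes were higher in 3 libraries and had no UMI in the 5 cells of Het sham. The Cd207 call was lost with DESeq2 (adjusted p = 0.348), and Cd207 and H2-DMa were markers named from earlier results of these data, so their direction is not independent evidence. Of 17 repair and matrix genes 6 rose, Mmp12, the membrane protease Mmp14 (1.43), the vascular growth factor Vegfa (1.15) and Fn1 among them, and 3 fell, Igf1 (-0.80) among them. The Igf1 call was lost in 3 of 15 alternatives, and the Vegfa call with DESeq2 (adjusted p = 0.395) and without KO MI.

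Interferon-inducible genes leaned higher, with 10 of 20 tested genes of the interferon-γ response up, 0 down and a list median of 0.84. Gbp2, an interferon-induced GTPase, had 83.7, 2.82, 51.0 and 130 CPM in the members and 8.13, 6.12, 7.58 and 36.7 CPM in class II low macrophages (2.12 ± 0.21, edgeR adjusted p = 3.14e-22). In KO sham the members had 1 UMI, and the floor of 3 UMIs there lay above the class II low level, so no difference is shown. Gbp4 (2.84), the PD1 ligand gene Cd274 (1.31) and Tap1, a subunit of the peptide transporter (0.99), rose. Cd274 lost its call with DESeq2 (adjusted p = 0.375) and without Het MI, and Tap1 without KO MI (0.0527). Of 20 type I interferon genes 8 rose and 0 fell (median 0.63), among them Irf7 (2.12), Rsad2 (1.20) and Isg15 (0.69). The Rsad2 and Isg15 calls were lost with DESeq2 (adjusted p = 0.355 and 0.304) and in 1 other alternative each. Of the members' Irf7 UMIs 24.3% came from 1 cell. Of 15 MHC class I genes 9 rose and 0 fell (median 0.57), H2-T23 (1.04), H2-Q6 (0.93) and H2-Q7 (0.92) among them, and these class I genes share sequence with one another, so their separate counts are uncertain. The H2-Q6 and H2-Q7 calls were lost in 2 of 15 alternatives each. Tap1, Psmb8 and Psmb9 were counted as higher in both the class I and the interferon-γ response lists.

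Chemokines were divided, with 5 of 18 up and 7 down, Pf4 among the 7. Ccl5, which draws T cells and monocytes, had 0, 92.9, 196 and 316 CPM in the members and 17.2, 21.1, 36.9 and 51.1 CPM in class II low macrophages (2.55 ± 0.17, edgeR adjusted p = 1.79e-49). Cxcl16, a membrane-bound chemokine for T cells, rose by 0.90. The monocyte attractants Ccl2 and Ccl12 fell by 1.51 and 1.48, and Ccl24, an eosinophil attractant, fell by 1.03. Ccl17 (6.71) and Ccl8 (1.07) passed as well, but 89.5% of the members' Ccl17 UMIs came from 1 cell, and Ccl8 was -0.64 with DESeq2 and -9.10 without KO MI. Among 13 cytokines, Il1b (1.18) and Il6 (1.18) rose and Tnf fell by 0.59. The calls of Il6 and Tnf were each lost in 6 of 15 alternatives and that of Ccl24 in 5, DESeq2 among them for all 3.

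Among the lists of costimulation, adhesion, phagocytosis and cell division, the last 2 leaned lower. Of 10 costimulatory and checkpoint ligand genes 3 rose, Cd40 (1.47), Cd274 and Havcr2 (0.88), while Cd80 (0.43) and Cd86 (-0.34) did not pass. The calls of Cd40, Cd274 and Havcr2 were lost with DESeq2 (adjusted p = 0.237, 0.375 and 0.185) and without 1 library, KO MI for Cd40 and Het MI for the other 2. Of 13 genes of T cell contact and adhesion 6 rose, led by the integrin chain Itgb7 (1.87), with Cd72 (1.40) and Cd52 (1.36). Of 14 efferocytosis and scavenger genes 8 fell and 1 rose, Axl (1.24), a receptor that takes Gas6 as its ligand. Cd163, Gas6, Mrc1, Stab1 and Timd4, already counted in the resident macrophage programme, were among the 8. Of 17 cell cycle genes 11 fell and 0 rose (median -0.73). Mki67, the proliferation antigen, had 0, 101, 122 and 51.0 CPM in the members and 189, 201, 176 and 143 CPM in class II low macrophages (-0.94 ± 0.16, edgeR adjusted p = 3.59e-07), a call lost without KO MI (0.0797).

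Macrophage identity itself differed little, with 2 of 12 genes up (the Fc receptor gene Fcgr1, 0.66, and the integrin Itgam, 0.46), 0 down and a median of -0.05. The Fcgr1 call was lost in 3 of 15 alternatives and that of Itgam in 6. Adgre1, which encodes F4/80 (-0.01), Csf1r (-0.31) and Cd68 (-0.09) did not pass, nor did the transcription factor Spi1, at 373 CPM in the members and 393 CPM in class II low macrophages. Of 13 dendritic cell genes 6 rose, Itgax, Batf3 (1.37), Tmem176a (1.04), Tmem176b (0.84), Dpp4 (2.59) and Flt3 (2.76), the last from 5 UMIs. The Flt3 call was lost in 6 of 14 alternatives, that of Dpp4 with DESeq2 and without KO MI, and that of Tmem176b without KO MI. Of 14 lipid-associated macrophage genes 4 rose, Mmp12, Itgax, Lgals3 (1.27) and Fabp5 (0.69), and 3 fell, Spp1 (-0.50) among them. Fabp5 lost its call in 3 of 15 alternatives and Spp1 in 5, DESeq2 among them for both. Neutrophil markers summed to 3015, 56.3, 1115 and 2749 CPM in the members and 1488, 1965, 2495 and 3075 CPM in class II low macrophages. Their part in these differences was followed only in the fits given next and was not tested further. With S100a8 and S100a9 limited to 1 UMI together, 572 genes were higher and 493 lower, 461 and 410 of them called above as well. Without droplets holding a second lineage, neutrophils among the lineages, 521 were higher and 420 lower, 453 and 395 of them called above.

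**Figure D3:**
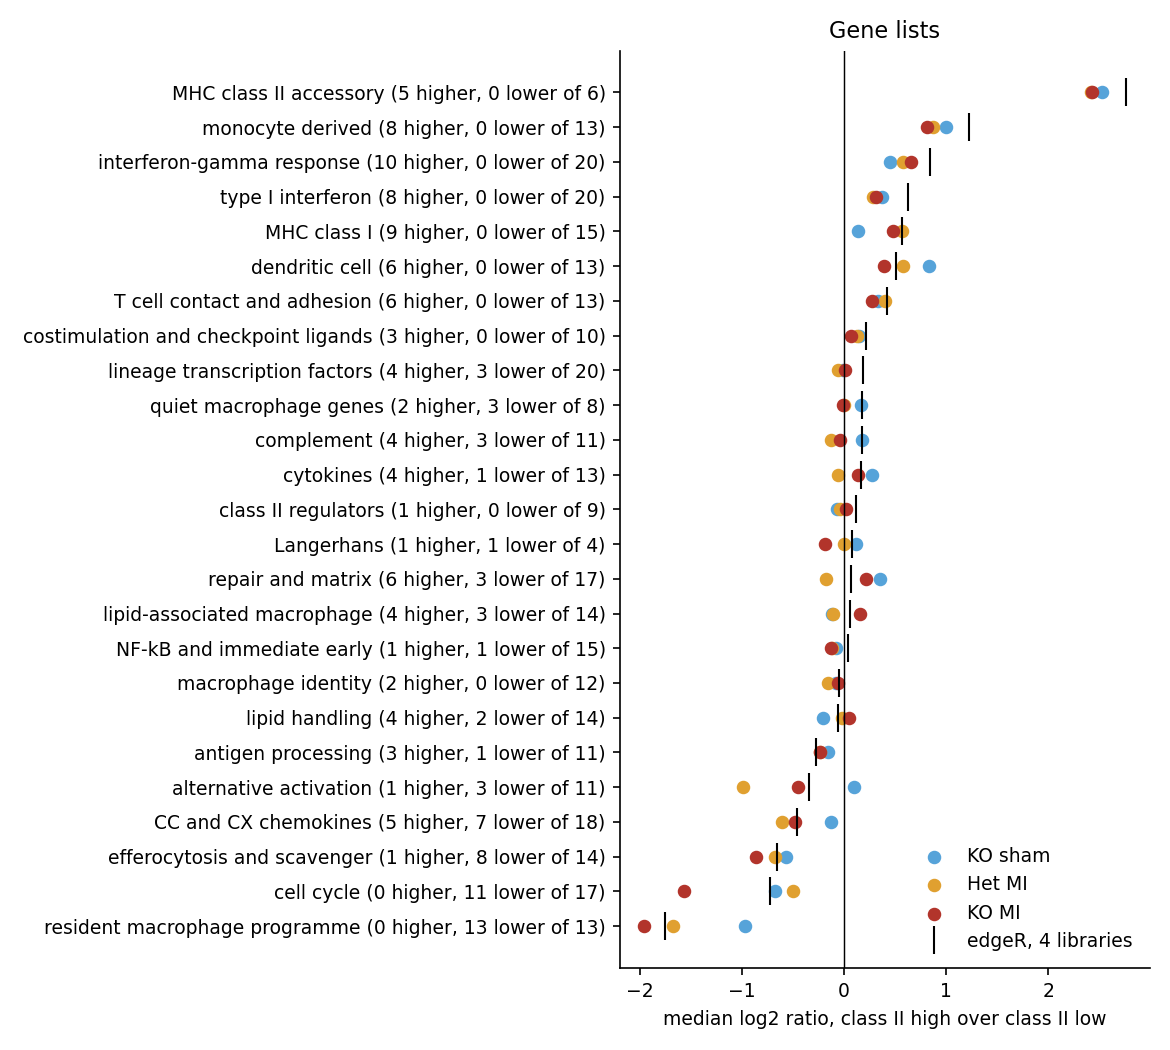
The median log2 ratio of class II high over class II low macrophages for each gene list in KO sham, Het MI and KO MI (points) and in the edgeR fit over all 4 libraries (black tick); labels give the genes higher and lower of those tested. Class II accessory genes lie furthest to the right at 2.76 and the resident macrophage programme furthest to the left at -1.75.

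The members were not uniform. Ccr2 reached 2 UMIs in 1 of 5, 15 of 29, 33 of 54 and 117 of 223 members (20.0%, 51.7%, 61.1% and 52.5%), against 5.15%, 7.40%, 8.22% and 7.79% of class II low macrophages. B cells gave 1.81% to 5.11% at median depths of 3527 to 4490 UMIs, against medians of 951 to 10927 in the members. With each cell thinned to 2000 UMIs, 31.0%, 44.4% and 35.9% of KO sham, Het MI and KO MI members kept a Ccr2 UMI, against 4.30% to 5.71% of class II low macrophages. Lyve1 reached 2 UMIs in 0, 1, 2 and 9 members (0 to 4.04%), against 15.0% to 23.9% of class II low macrophages and 0 B cells. Between 38.9% and 48.3% of the members in the 3 larger samples had neither gene at 2 UMIs.

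Mmp12 and Cd207 marked smaller fractions that overlapped Ccr2 to different degrees. Mmp12 reached 2 UMIs in 0, 6, 10 and 38 members (0, 20.7%, 18.5% and 17.0%), against 1.87% to 2.58% of class II low macrophages and at most 0.255% of B cells, and 3 of the 6 in KO sham, 7 of the 10 in Het MI and 32 of the 38 in KO MI also had Ccr2. Cd207 reached 2 UMIs in 0, 4, 2 and 14 members, against 0.808% to 1.43% of class II low macrophages and 0 B cells, and 3 of the 14 in KO MI also had Ccr2. No KO sham or Het MI member had both Ccr2 and Cd207 at that level. Mki67 reached 2 UMIs in 0, 4, 9 and 21 members (9.42% to 16.7% in the 3 larger samples), against 17.2% to 24.4% of class II low macrophages and 4.51% to 6.17% of B cells.

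Genes that the rule did not use also varied with the class II level among the members. In KO MI, cells at 50 to 100, 100 to 200 and 200 or more per 10000 UMIs numbered 67, 58 and 98. H2-DMb1 had 166, 259 and 506 CPM in these bins, Ccr2 202, 289 and 427 CPM, and Pf4 1439, 944 and 466 CPM. Mrc1 ran from 646 over 418 to 238 CPM, and F13a1 stood at 287, 297 and 48.8 CPM. H2-DMb1 and Ccr2 were thus highest, and Pf4, Mrc1 and F13a1 lowest, in the cells with the most class II. Mmp12 had 59.8, 45.4 and 323 CPM, with its highest value in the top bin. In Het MI, with 22, 14 and 18 cells, H2-DMb1 had 173, 241 and 449 CPM, Ccr2 173, 488 and 430 CPM, and Pf4 1239, 1241 and 430 CPM. In KO sham, with 11, 9 and 9 cells, H2-DMb1 again was highest in the top bin (170, 253 and 582 CPM), but Ccr2 ran the other way (375, 228 and 176 CPM) and Pf4 was highest in the middle bin (969, 2585 and 1285 CPM). These bins hold cells of 1 library each and are a description.

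**Figure D4:**
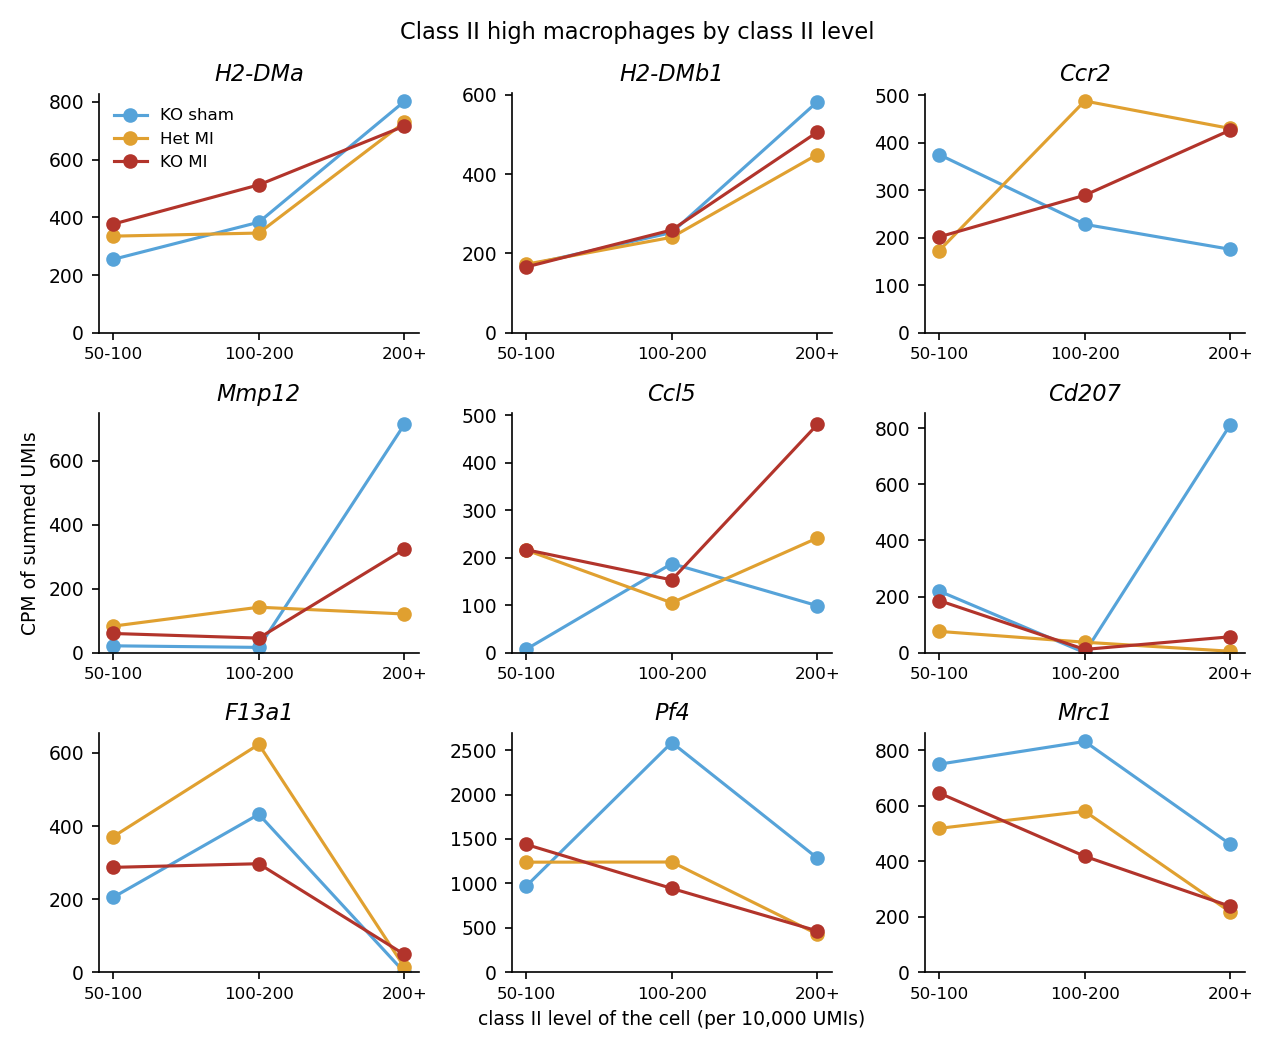
CPM of 9 genes in class II high macrophages by class II level (50 to 100, 100 to 200, 200 or more per 10000 UMIs), 1 line each for KO sham, Het MI and KO MI. H2-DMb1 is highest in the top bin in every library shown (506 CPM in KO MI) and F13a1 lowest (48.8 CPM in KO MI).

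Beside the nearest other class II high cells the members kept their own pattern, which is a description since fewer than 20 cells of those types were present in 3 libraries or more. Cd209a+ dendritic cells (7, 11, 16 and 15 cells) had 714 CPM of H2-DMb1 (exact Poisson interval 649 to 783), against 322 CPM in the members (302 to 342). The interval of their Mmp12 was 39.0 to 77.9 CPM, against 160 CPM (146 to 175) in the members, and they had 0 Cd207 UMIs, against 100 CPM in the members (89.4 to 112). Macrophages that met every other part of the rule but had at least 2 Cxcl9 UMIs numbered 0, 0, 1 and 26. They had 709 CPM of Gbp2 (617 to 811), against 98.9 CPM in the members (88.2 to 111), and 174 CPM of Ccr2 (130 to 228), against 320 CPM (300 to 340). Cd207 was at 0 in them too. Only 0, 4, 2 and 14 members reached 2 Cd207 UMIs, whereas the intervals take each UMI as independent. A 0 among so few other cells thus does not separate them from the members by Cd207. The member values in this paragraph pool all 4 libraries, whereas all but 1 of the Cxcl9 macrophages came from KO MI, so these sets of libraries differ.

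Between the MI libraries, KO MI members had more interferon-γ response, monocyte-derived macrophage and matrix RNA and less cell cycle RNA than Het MI members, while H2-DMa, H2-DMb1 and Ccr2 differed by less than 1.5-fold. With 1 library a group there is no test, and intervals are exact conditional binomial ones for counting error. Over 6843 genes with at least 30 UMIs, 547 (7.99%) were at least 1.5-fold higher and 718 (10.5%) at least 1.5-fold lower in KO MI, with a median log2 ratio of -0.07. The lower count was 251 when the cell with most UMIs of each gene was left out. In Het MI the deepest of the 54 members had 47478 of the 646626 UMIs. TMM scaling would move the centre by -0.11, which would turn the sign of Ccr2 alone among the members' ratios given below.

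H2-DMa had 464 CPM in Het MI and 558 in KO MI members (log2 ratio 0.27, interval 0.08 to 0.45), and H2-DMb1 278 and 337 CPM (0.28, 0.04 to 0.52). Ciita had 18.6 and 25.01 CPM (0.43, -0.49 to 1.47), and Ccr2 334 and 321 CPM (-0.06, -0.28 to 0.17). The intervals of Ciita and Ccr2 include 0. The class II accessory list had a median of 0.27 over 4 genes, against 0.31 for the same genes in class II low macrophages. Of 11 monocyte-derived macrophage genes 8 were at least 1.5-fold higher and 0 lower in KO MI members, with a median of 0.61 (0.66 in class II low macrophages). S100a6 had 478 and 728 CPM (0.61, 0.43 to 0.79), and Ccr2 had the lowest ratio of the list.

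Of 18 interferon-γ response genes 11 were at least 1.5-fold higher and 0 lower in KO MI members, with a median of 0.68, against 0.72 in class II low macrophages. Gbp2 had 51.0 CPM in Het MI and 130 CPM in KO MI members (1.35, 0.82 to 1.91). Iigp1, an interferon-induced GTPase, had 2 and 67 UMIs (3.35, 1.44 to 6.43). Both class II high and class II low macrophages thus had the higher interferon-γ response values in KO MI. Of 14 type I interferon genes 4 were higher and 2 lower (median 0.24, against 0.69 in class II low macrophages). Oasl2, an antiviral gene, led them with 17.0 and 53.3 CPM (1.65, 0.75 to 2.69), with 45.5% of the Het MI UMIs in 1 cell. Irf7 had 141 and 84.0 CPM (-0.74, -1.12 to -0.36), but 1 cell held 76.9% of the Het MI UMIs and the ratio was 1.37 without the top cell of each library.

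Matrix and alternative activation genes had higher list medians in KO MI members than in Het MI members. Of 15 repair and matrix genes 7 were higher and 1 lower in KO MI members (median 0.56, against -0.01 in class II low macrophages), and of 8 alternative activation genes 5 were higher and 0 lower (0.67 against -0.03). The difference between the populations was not tested. Fn1 had 99.0 and 488 CPM (2.30, 1.94 to 2.69), and Fabp5, a fatty acid-binding protein, 77.3 and 281 CPM (1.86, 1.45 to 2.31). In class II low macrophages these ratios were 1.66 and 0.76. Of the Het MI members' Fn1 UMIs 56.3% came from 1 cell. The lipid handling list as a whole had 4 of 13 genes higher, 0 lower and a median of 0.03 (0.20 in class II low macrophages). Arg1, arginase, had 0 UMIs in Het MI and 134 in KO MI members, a log2 ratio of at least 3.77 against the floor of 3 UMIs, with 38.1% of the UMIs in 1 cell, beside 11.6 and 86.3 CPM in class II low macrophages (2.89). Retnla (82.1%) and Ccl8 (78.3%) came mostly from 1 KO MI cell each and are not read.

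Cell cycle genes were lower in KO MI members, 12 of 16 by at least 1.5-fold and 0 higher, with a median of -1.20, against -0.04 in class II low macrophages. Mki67 had 122 CPM in Het MI and 51.0 CPM in KO MI members (-1.26, -1.69 to -0.82), and Top2a, a topoisomerase of dividing cells, 86.6 and 44.8 CPM (-0.95, -1.44 to -0.45). The top Het MI cell held 29.1% of the Mki67 and 41.1% of the Top2a UMIs. Without the top cell of each gene Mki67 was -0.76, Top2a -0.19 and the list median -0.58, and among members at or above 100 class II UMIs per 10000 the list median was -0.28. Leaving out those cells thus moved every cell cycle value toward 0.

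The remaining genes named by size were Stfa3 (4.62, 2.74 to 7.68), Csta2 (2.92), Stfa2 (2.85), Stfa2l1 (2.14) and Cstdc5 (2.11), all higher in KO MI. These stefin genes form a cluster of close copies, so reads may be divided among them. In Het MI 1 cell held between 40.9% and 75.0% of the UMIs of each. Stefins are abundant in neutrophils. S100a8, a neutrophil gene, had 405 and 1205 CPM in the same members (1.57, 1.39 to 1.76), and 3 of 54 and 15 of 223 members held neutrophil RNA by the lineage rule. The stefin ratios were also computed without droplets holding a second lineage, and with S100a8 and S100a9 limited to 1 UMI together. None of those that could be computed turned its sign. The sizes of these ratios are not given here, and the part of neutrophil RNA in the stefin values was not tested further. Ccl4, a chemokine of activated macrophages, was the other lower gene, with 3422 and 2152 CPM (-0.67, -0.74 to -0.60).

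**Figure D5:**
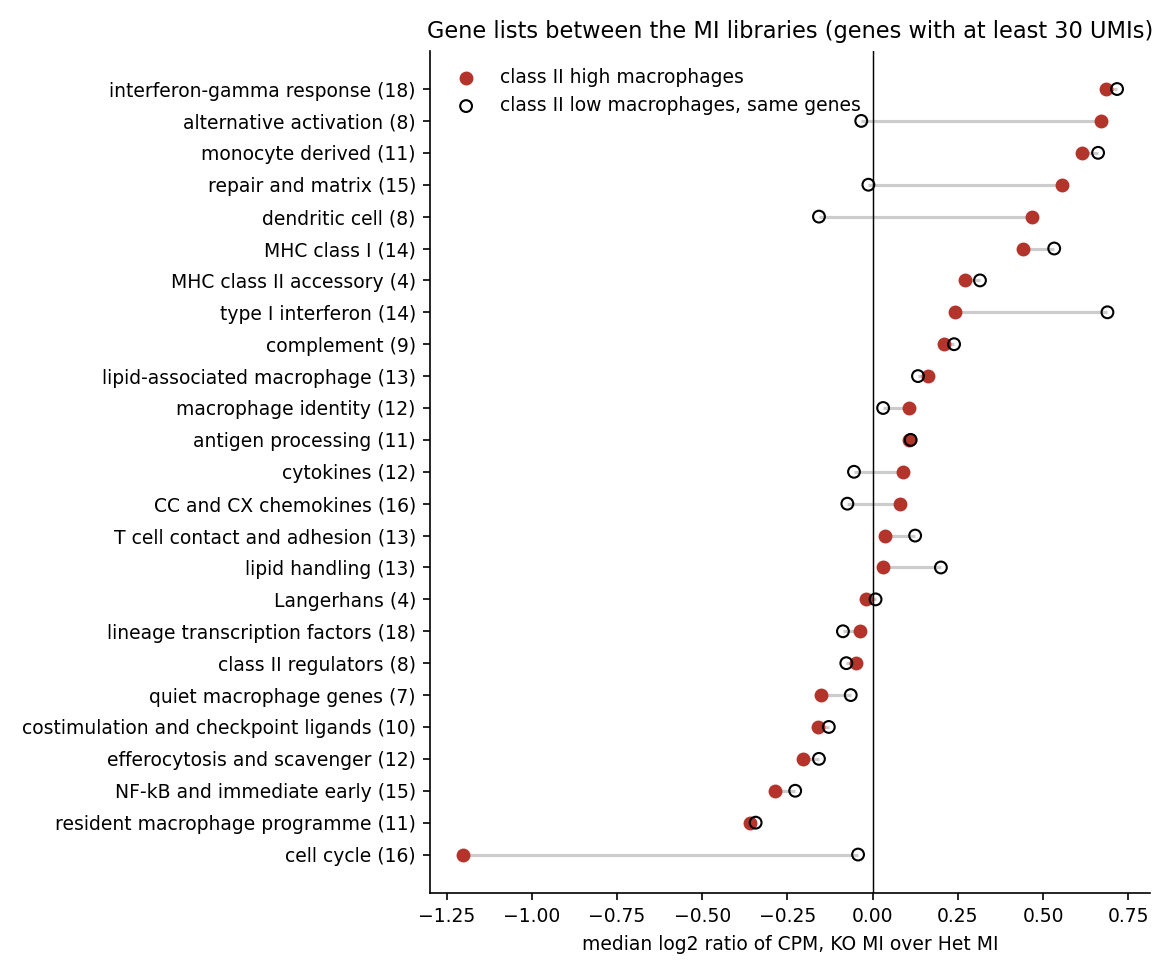
Median log2 ratio of KO MI over Het MI for each gene list in class II high (filled) and class II low (open) macrophages. The interferon-γ response lies at 0.68 and 0.72, whereas the cell cycle list lies at -1.20 in class II high and -0.04 in class II low cells.

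Set against KO sham, KO MI members had higher interferon-γ response and monocyte-derived macrophage genes, and the comparison shares the KO MI library with the one above. Of 6512 genes 884 (13.6%) were at least 1.5-fold higher and 942 (14.5%) lower. The lower count was 313 without the top cell of each gene and 565 with TMM scaling, which moves the centre by -0.18. Of 18 interferon-γ response genes 15 were higher and 0 lower (median 1.10, against 0.70 in class II low macrophages), and Gbp2 had 1 UMI in KO sham and 275 in KO MI (5.53, 3.04 to 10.84). Of 11 monocyte-derived macrophage genes 7 were higher and 0 lower (0.97 against 0.60). H2-DMa had 439 and 558 CPM (0.35, 0.10 to 0.60), H2-DMb1 304 and 337 CPM (0.15, -0.15 to 0.45) and Ccr2 273 and 321 CPM (0.23, -0.07 to 0.56).

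The genes highest in KO MI over KO sham were the neutrophil genes S100a8 (8.74), S100a9 (6.26) and Stfa1 (6.07), and Cstdc5 (5.66). S100a8 and S100a9 had 1 and 6 UMIs in KO sham members, and S100a9 was 0.90 without droplets holding a second lineage. The lowest by the naming rule (at least 100 UMIs, an interval beyond 1.5-fold and no cell over 30% of the higher library's UMIs) were the cell cycle gene Cks2 (-1.46, -1.81 to -1.11), Raph1 (-1.40), Ccl2 (-1.37, -1.60 to -1.15) and Pa2g4 (-1.33). Cd207 had 296 CPM in KO sham and 85.9 CPM in KO MI members (-1.78, -2.14 to -1.42), with 31.4% of the KO sham UMIs in 1 cell. The Lyve1 ratio of -3.23 rested on 1 KO sham cell and was 1.51 without the top cells. Ratios over Het sham rest on 5 cells with 1 to 5 UMIs of each named gene (Ccl4, Cxcl2 and Mrc1 in both comparisons, with Ckb after MI and Ccl2 after KO sham), and are not read further.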

How the data were processed

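Per the labels' protocols, live CD45+ cells of hearts without atria were sorted and made into 4 libraries of the 10x single cell 3′ v3 chemistry, 1 for each group. Per the submitters' processing notes, the tools were Cell Ranger 6.1.1 and Seurat 4 and the builds mm10 and GRCm38, while Cell Ranger 4.0.0 stands in the file headers. The values in the matrices the authors deposited are UMI counts for 32285 genes in each barcode, not normalized. How cells were called, how many hearts were pooled and how reads shared between copies of a gene were counted is not given in the sources used here.

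Cells with at least 500 UMIs, at least 200 genes and at most 10% mitochondrial UMIs were kept, and members were chosen by fixed limits on 18 genes. Doublets were treated by the limits on dendritic cell, B and T cell genes. Scrublet, run in scanpy 1.11.5, marked 177, 0, 1 and 5 cells at its automatic threshold and so did not work. Scrublet at a rate of 0.8% per 1000 barcodes and a lineage rule served as alternatives. The lineage rule marked a droplet with at least 3 UMIs of the markers of any of 8 lineages other than macrophages. Those UMIs also had to reach 10% of the median level in cells led by that lineage.

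UMIs were summed per library and population and fitted with edgeR 4.0.16 (glmQLFit and glmQLFTest, TMM factors, filterByExpr, library as a block) in R 4.3.3. DESeq2 1.42.0 was an alternative, and the scripts were tested on simulated data. Cells are not replicates, and comparisons between libraries give CPM with exact intervals (95%, counting error only) and no test. Members against Cxcl9 macrophages or Cd209a dendritic cells had too few libraries with 20 cells for the planned fit and are described only. The members, the 25 gene lists and the naming rule were chosen with earlier results of these data known. Genes were named against class II low macrophages as the 10 highest and 10 lowest by fold among called genes moving one way in all 4 libraries with at least 100 UMIs in all and 50 CPM in the higher population, and between libraries as up to 8 (KO MI over Het MI) or 4 each way with at least 100 UMIs, an interval beyond 1.5-fold and no cell with over 30% of the UMIs of the higher library. Other genes come from the lists. Promoter windows are from RefSeq (GRCm38.p6), and gene positions from GENCODE M21 on GRCm38. H2-Ab1, Cd74 and Ciita promoters were not used here.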

Additional observations from a re-analysis of the deposited data

Results flagged for a closer look

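For Cd207 and Irf7, the KO MI over Het MI log2 ratio had opposite signs in class II high and class II low macrophages. Cd207 was 0.99 in the members (43.3 and 85.9 CPM in Het MI and KO MI) and -1.02 in class II low macrophages (19.8 and 9.77 CPM), with 75.0% of the Het MI members' UMIs in 1 cell. Irf7 was -0.74 in the members (141 and 84.0 CPM) and 1.08 in class II low macrophages (18.3 and 38.8 CPM), with 76.9% of the Het MI members' UMIs in 1 cell. The difference between the populations was not tested for either gene.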

How the results depend on the processing

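With 1 library a group and 5 members in Het sham, depth limits what can be said of Het sham and of genes at few UMIs. KO sham over Het sham was 8.17 and Het MI over Het sham 19.1 among cells of at least 1000 UMIs, 5.55 and 12.04 without droplets holding a second lineage, and 5.31 and 11.9 at a class II limit of 100 per 10000 UMIs. With every cell thinned to 2000 UMIs, KO MI over Het MI was 2.16 and KO MI over KO sham 3.46. The limits set in UMIs then applied to the thinned counts, which also let in cells over a limit at full depth. At a class II limit of 25 per 10000 UMIs, Het MI over Het sham was 2.15 and KO sham over Het sham 0.969.

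Members against class II low macrophages gave 477 higher and 465 lower genes, and 196 and 110 with DESeq2, of which 187 and 110 were also called by edgeR. Leaving out each library in turn gave 173 to 812 higher and 113 to 631 lower genes (fewest without KO MI, most without Het sham). Without the library block they were 380 and 357. No paired analysis across groups was possible because each group holds 1 library. Of 1447 alternative values for named genes, 1342 kept their side of the threshold and 98 lost their call, and Cd86 gained one without Het sham. DESeq2 took or turned the call of 32 of 88 called genes, and leaving out KO MI that of 21. Ngp turned to 1.24 without droplets holding another lineage and 1.52 with S100a8 and S100a9 limited to 1 UMI together, Retnla (1.18 as reported by edgeR) to -0.91 with DESeq2 and, leaving out 1 library, ran from -2.17 (without Het sham) to 3.39, and Ccl8 to -0.64 with DESeq2 and from -9.10 (without KO MI) to 1.42. The cause was not tested.

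Between libraries, leaving out the top cell of each gene changed most. The genes lower in KO MI were then 251 over Het MI and 313 over KO sham, the latter 565 with TMM scaling. The resident macrophage median over KO sham was 0.46 without the top cells and -1.18 at or above 100 class II UMIs per 10000, where the cell cycle median over Het MI was -0.28. Irf7 over Het MI was 1.37 without the top cells and 1.003 at or above 100 class II UMIs. Over KO sham without the top cells, Retnla was -0.26 and Lyve1 1.51. Of 400 alternative values for named genes between libraries 352 moved little.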
